A study of Mus musculus with 12 samples.

Results

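Prostates of TRAMP mice fed the control diet were compared between 24 and 16 weeks of age across all genes. The comparison used 4 of the 12 RNA sequencing libraries of the study, taken by genotype, diet, age and tissue. These were replicates 0 and 2 of the 24-week mice and replicates 0 and 1 of the 16-week mice, so 2 libraries an age. TRAMP mice, labelled C57BL/6-Tg(TRAMP)8247Ng/J, carry SV40 T antigen behind the probasin promoter, which is active in prostate epithelium, so the oncogene is switched on in the gland's own epithelial cells as they mature. Both ages carried the transgene and ate AIN-93M diet with nothing added. The tissue was ventral together with dorsolateral lobes, snap frozen and taken for total RNA, and a separate tumor library of 24 weeks was not used here. Age changes in TRAMP mice fed the same diet with 0.05% (w/w) phenethyl isothiocyanate (PEITC; 2 libraries at 24 weeks, 2 at 16 weeks) and in wild type C57BL/6 mice on the control diet (2 at 24 weeks, 1 at 16 weeks) served for comparison. The labels do not say whether a library is 1 animal or a pool, so p-values measure the spread between these libraries, which may be partly technical.

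T antigen binds and inactivates the retinoblastoma and p53 proteins, so TRAMP epithelium proliferates and passes through hyperplasia and intraepithelial neoplasia to carcinoma with age. Luminal cells of the normal gland are secretory: under androgen control they make large amounts of spermine-binding protein, probasin, beta-microseminoprotein and beta-defensins, and their endoplasmic reticulum (ER) is built for export. Loss of such secretory products and of ordered tissue structure are textbook features of advancing prostate disease, as are inflammatory infiltrates and reactive stroma.

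Values are FPKM, fragments scaled to transcript length and to library size, as deposited. Depth in reads is unknown, but the smallest steps between low values put the depth at 1 and 0.949 at 24 weeks and at 0.926 and 0.895 at 16 weeks, relative to the deepest library. The tissue label held: Krt18 (a luminal keratin) was at 605 and 624 FPKM at 24 weeks, against 651 and 634 FPKM at 16 weeks, and Hoxb13, the prostate homeobox gene, was at 431 and 433 FPKM at 24 weeks, against 455 and 484 FPKM at 16 weeks. Seminal vesicle proteins were near 0 in all 4 libraries (Svs2 at most 0.111 FPKM). The 4 libraries did not sort cleanly by age. Across tested genes, replicate 2 at 24 weeks was most like replicate 0 at 16 weeks (Pearson r = 0.9919 on the log2 scale) and less like the other 24-week library (r = 0.9871). The median absolute difference between the age means was 0.12 on the log2 scale, against 0.12 between the 24-week replicates and 0.12 between the 16-week replicates. A difference between means of 2 libraries carries less replicate noise than one between single libraries. The equal values therefore do not show that the ages differed no more than replicates did. Libraries of the 2 ages also differed with base composition: the log2 fold change was higher for genes with GC-rich exons, with Spearman's rho = 0.441 across 12847 genes (a description; genes are not replicates), while rho was -0.152 for the age change on PEITC diet and -0.062 in wild type. Its part in the results was not tested beyond a correction that brought rho to -0.003, whose values stand beside the medians of the gene groups below.

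**Figure D1:**
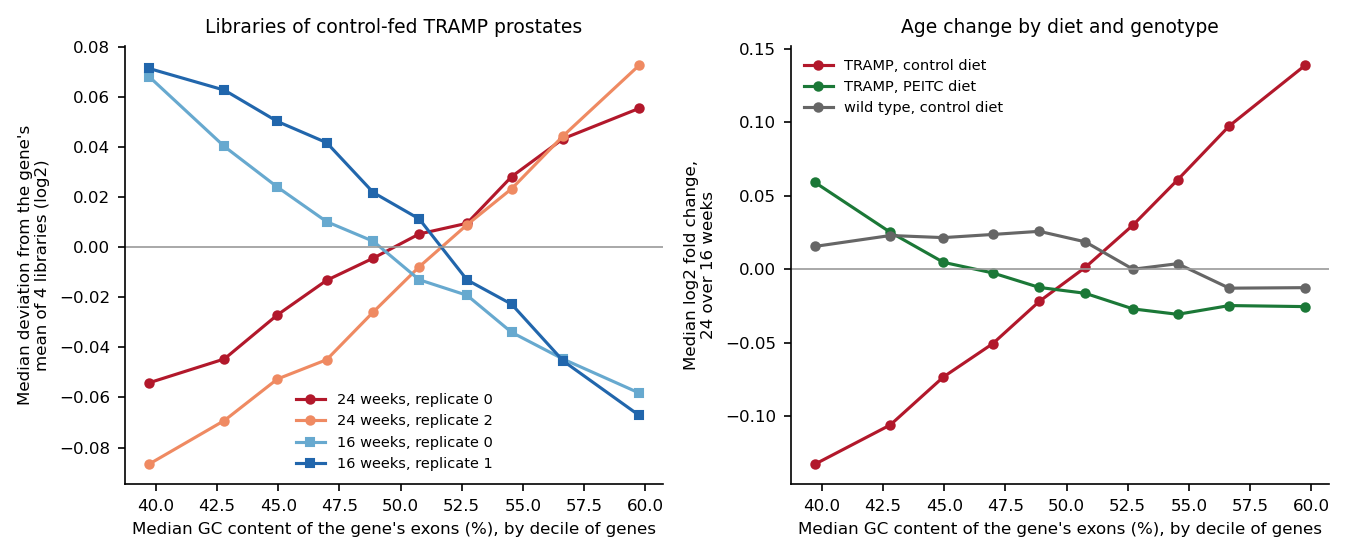
Median deviation of each library from the gene's mean over the 4 libraries (left, log2) and median log2 fold change of 24 over 16 weeks (right) for 10 equal bins of genes ordered by exon GC content (%). Both 24-week libraries rise and both 16-week libraries fall with GC content, and the age change on control diet runs between -0.13 and 0.14 while that on PEITC diet and in wild type stays nearer 0.

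Of 13324 genes tested with limma on log2(FPKM + 1), with p-values adjusted by Benjamini-Hochberg (BH) and an adjusted p under 0.05 called, 1 was called between the ages, 0.00751% of those tested. That gene, Cyp2b10, fell at 24 weeks. Cyp2b10 (ENSMUSG00000030483.14, chr7:25897620-25926624, plus strand, GRCm38) encodes a cytochrome P450 of foreign-compound metabolism, best known as an inducible enzyme of mouse liver. It had 14.6 and 14.1 FPKM at 24 weeks, against 46.5 and 48.6 FPKM at 16 weeks. The means were 14.4 ± 0.369 FPKM at 24 weeks and 47.6 ± 1.42 FPKM at 16 weeks (SD, n = 2 each), 3.31-fold lower at 24 weeks, with a log2 fold change of -1.66 (SE 0.07; limma adjusted p = 0.000252). The replicates of each age lay within a few percent of each other and the ages were far apart. Over all alternative settings its adjusted p ran between 0.000204 and 0.0506, the last in a fit on the 4 libraries alone, where it was not called. Cyp2b10 belongs to a family of similar genes, and how reads shared among them were counted is not given in the sources used here.

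On the PEITC diet Cyp2b10 had 20.8 and 18.9 FPKM at 24 weeks, against 24.1 and 27.3 FPKM at 16 weeks, and in wild type mice 110 and 108 FPKM at 24 weeks, against 113 FPKM at 16 weeks. The age change on control diet differed from that on PEITC diet by -1.30 on the log2 scale (limma, adjusted p = 0.0234; 95% interval -1.54 to -1.06) and from that in wild type by -1.61 (limma, adjusted p = 7.36e-04). The second p-value rests on 1 wild type library at 16 weeks, which is assumed to vary like the other groups and which also held seminal vesicle RNA. The difference by diet was not called in 7 of the other settings tried, among them each fit without one of 24-week replicate 0, 16-week replicate 0 or 16-week replicate 1, and a fit on the 8 TRAMP libraries.

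No gene rose past the threshold in limma, but 1043 genes were higher (7.83%) and 1207 lower (9.06%) at 24 weeks at an unadjusted p under 0.05, 16.9% together. Another count without a test is of genes whose 2 libraries of one age both lie beyond the 2 of the other: 2837 genes were higher in this way (21.3%) and 3321 lower (24.9%), and the counts of gene groups below are read against these shares. With a change of at least 2-fold as well, 77 genes were higher (0.578%) and 23 lower (0.173%). The median log2 fold change over all tested genes was -0.01. With 2 libraries an age, an exact permutation test of a single gene cannot go below p = 0.333. The number of calls depended on replicate 2 of 24 weeks: without it, 256 genes were called, with the lone 24-week library assumed to vary like the other groups. The genes below other than Cyp2b10 did not pass the adjusted threshold, and their values are given as measured.

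Products of the secretory epithelium were mostly lower at 24 weeks. Of 21 tested genes on a list of prostate secretory products, 10 were lower and 1 higher without overlap between the ages, 8 were lower and 1 higher at an unadjusted p under 0.05, and none was called. The list's median log2 fold change was -0.33, against -0.01 over all tested genes, and -0.36 after the GC correction. The age change in wild type had a similar median, -0.32, with 16 of the 21 genes lower, resting on 1 library at 16 weeks. On PEITC diet the median was -0.08, with 12 lower. Sbp (chr17:23941672-23945607), spermine-binding protein and the most abundant of the listed products, had 2042 and 2324 FPKM at 24 weeks, against 3599 and 3931 FPKM at 16 weeks (log2 fold change -0.79, SE 0.12; limma adjusted p = 0.178). Its relative Sbpl had 178 and 218 FPKM at 24 weeks, against 278 and 372 FPKM at 16 weeks. Replicates of each age stayed together for both genes. Sbp was called under quantile normalization and with a replicate block. In that block number 2 belongs to 1 library alone, so 24 weeks rested on replicate 0. Spink1, a trypsin inhibitor secreted into seminal fluid, had 565 and 858 FPKM at 24 weeks, against 916 and 1428 FPKM at 16 weeks (log2 fold change -0.71). These 3 genes were also lower at 24 weeks on PEITC diet, where Sbp had 2230 and 2194 FPKM at 24 weeks, against 3815 and 4166 FPKM at 16 weeks; the age change of Sbp differed between the diets by 0.06 (95% interval -0.32 to 0.44; limma adjusted p = 0.905).

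A second set of luminal genes was low mainly in 1 library, replicate 0 of 24 weeks. Probasin (Pbsn), whose promoter drives the transgene, had 15.5 and 74.8 FPKM at 24 weeks, against 78.6 and 107 FPKM at 16 weeks (log2 fold change -1.39, SE 0.73; limma adjusted p = 0.361). Msmb, beta-microseminoprotein, had 329 and 978 FPKM at 24 weeks, against 1231 and 1053 FPKM at 16 weeks. In both genes the ages did not overlap, yet replicate 2 of 24 weeks lay close to the 16-week libraries and replicate 0 far below. The epithelial beta-defensins followed: Defb1 had 11.4 and 99.3 FPKM at 24 weeks, against 135 and 160 FPKM at 16 weeks, and Defb50 had 244 and 763 FPKM at 24 weeks, against 822 and 975 FPKM at 16 weeks. Without replicate 0 of 24 weeks the median of the secretory list was -0.17, and without replicate 2 it was -0.62. In bulk tissue, fewer cells of a type and less RNA per cell cannot be told apart.

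Other epithelial genes also differed between the ages. Mme, neprilysin, a peptidase of the luminal cell surface, had 97.6 and 164 FPKM at 24 weeks, against 264 and 245 FPKM at 16 weeks (log2 fold change -1.0, SE 0.21). Prlr, the prolactin receptor, had 9.30 and 18.6 FPKM at 24 weeks, against 23.9 and 28.4 FPKM at 16 weeks. Id4, a helix-loop-helix inhibitor of transcription factors, had 2.71 and 4.89 FPKM at 24 weeks, against 10.9 and 14.9 FPKM at 16 weeks (log2 fold change -1.56, SE 0.34; limma adjusted p = 0.178). Both 24-week libraries were below both 16-week libraries in these genes, and in Prlr replicate 2 of 24 weeks lay nearer to the 16-week libraries than to replicate 0. Id4 was also lower at 24 weeks on PEITC diet (log2 fold change -0.50) and in wild type (-0.93, with 1 library at 16 weeks). For Mme these changes were smaller, -0.14 and -0.11. H2-Q10, a class Ib histocompatibility gene with close relatives in its locus, had 1.68 and 5.51 FPKM at 24 weeks, against 11.7 and 28.7 FPKM at 16 weeks, and 107 and 111 FPKM in wild type mice at 24 weeks, against 160 FPKM at 16 weeks. One secretory gene ran the other way: Pigr, the receptor that carries immunoglobulin A across epithelium, had 1508 and 900 FPKM at 24 weeks, against 721 and 606 FPKM at 16 weeks (log2 fold change 0.82).

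Androgen-responsive genes were split. Of 22 tested genes of that list, 5 were higher and 7 lower without overlap, with a median of -0.03, and -0.02 after the GC correction. Tsc22d3, a glucocorticoid- and androgen-responsive gene, had 43.8 and 67.2 FPKM at 24 weeks, against 82.4 and 93.6 FPKM at 16 weeks (log2 fold change -0.68). Fkbp5, a hormone-induced cochaperone, had 106 and 117 FPKM at 24 weeks, against 157 and 150 FPKM at 16 weeks. Tmprss2, an androgen-induced protease, had 75.9 and 66.4 FPKM at 24 weeks, against 59.0 and 56.6 FPKM at 16 weeks. These 3 genes did not overlap between the ages, Tsc22d3 and Fkbp5 being lower and Tmprss2 higher at 24 weeks. The list's largest change was of Steap4, higher at 24 weeks without overlap (log2 fold change 2.0), whose values are given with the cytokine-signalling genes below.

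**Figure D2:**
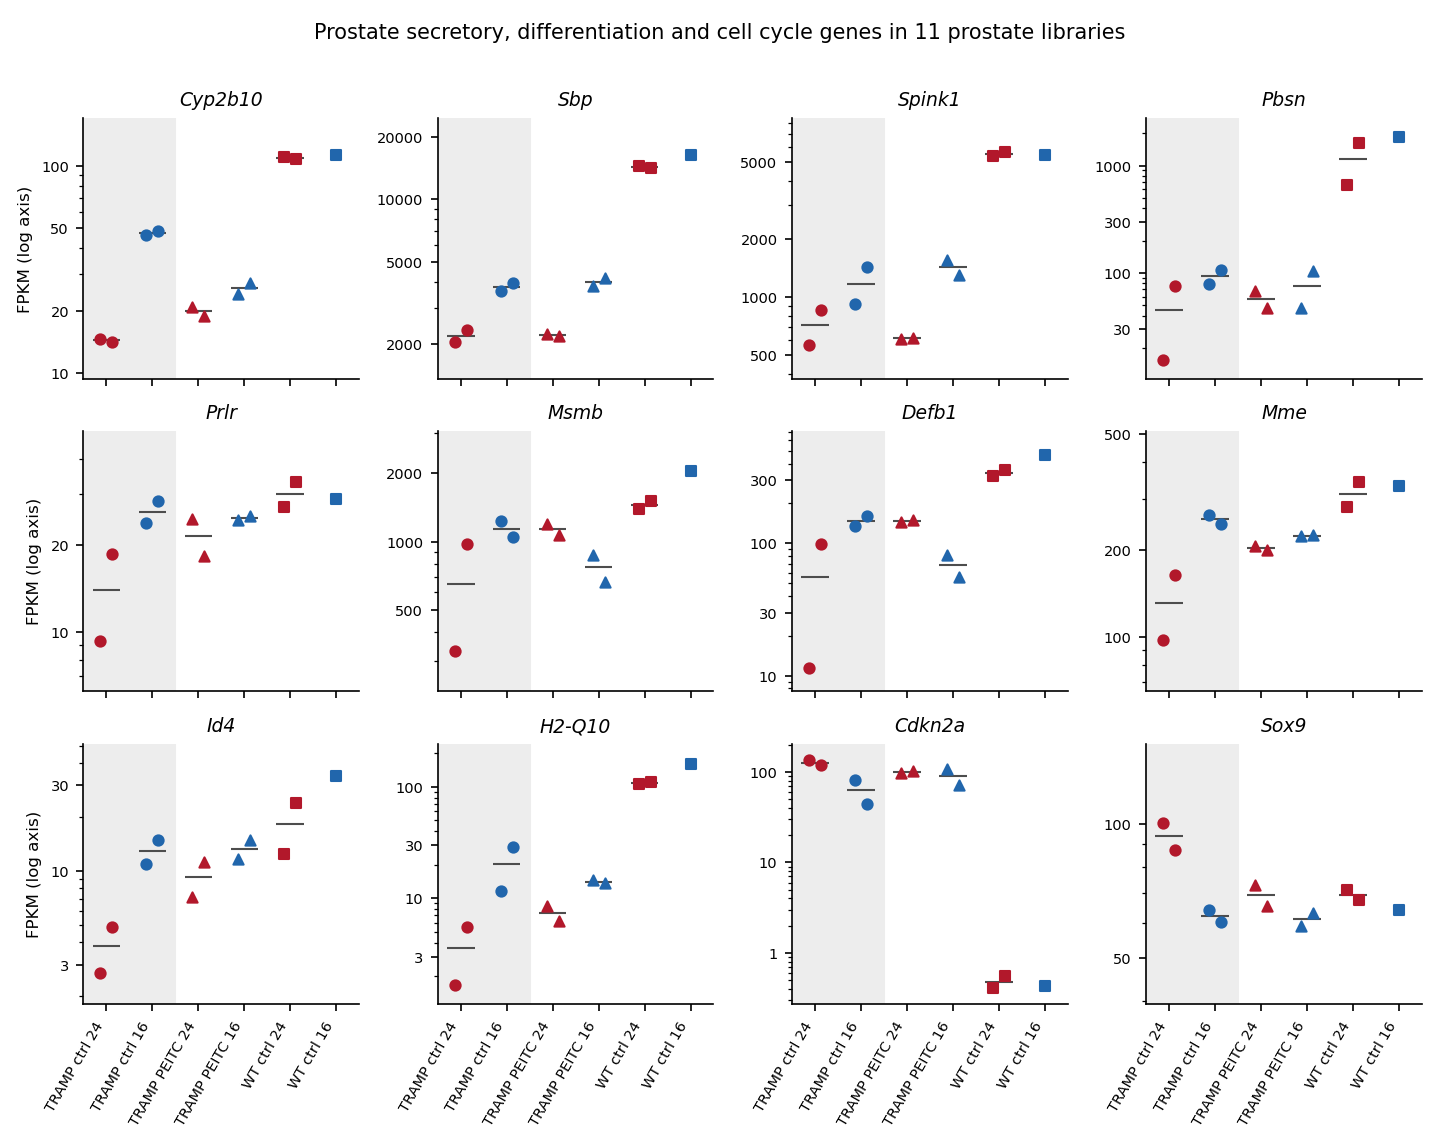
FPKM (log axis) of 12 epithelial genes in each of the 11 prostate libraries; circles are TRAMP control diet (shaded), triangles TRAMP PEITC diet, squares wild type, red 24 weeks, blue 16 weeks, and lines the means of 2 libraries. Cyp2b10 has the widest gap between the ages relative to its spread, while in Pbsn, Msmb and Defb1 1 of the 2 circles of 24 weeks lies far below the other.

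Genes of the ER and secretory pathway were mostly lower at 24 weeks. Proteins bound for secretion are folded in the ER by chaperones such as Hspa5 (BiP) and Hsp90b1 (GRP94) and by disulphide isomerases, and the genes are induced together when folding load is high. Of the 28 listed genes, all were tested, 22 were lower and none higher without overlap, 17 were lower and none higher at an unadjusted p under 0.05, and none was called. Their median log2 fold change was -0.26, -0.25 after the GC correction (24 lower and none higher without overlap, where 22.4% of 12847 genes were lower and 17.1% higher), and between -0.35 and -0.18 when any 1 of the 4 libraries was left out. Hspa5 (chr2:34771970-34777547) had 391 and 492 FPKM at 24 weeks, against 590 and 674 FPKM at 16 weeks (log2 fold change -0.52, SE 0.11; limma adjusted p = 0.178). Dnajb9, an ER J-domain cochaperone, had 48.9 and 76.6 FPKM at 24 weeks, against 102 and 135 FPKM at 16 weeks (log2 fold change -0.93). Herpud1, which takes part in ER-associated degradation, had 199 and 255 FPKM at 24 weeks, against 298 and 386 FPKM at 16 weeks (log2 fold change -0.59). In each of them both 24-week libraries lay below both 16-week libraries, with replicate 0 of 24 weeks lowest and replicate 1 of 16 weeks highest. Replicate 0 of 24 weeks was the lowest library in 25 of the 28 genes, and the part of that library in the list's median was not tested beyond the values without it, -0.20.

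Some other genes of the pathway had closer replicates. Of those named next, Ero1l, Tmed2 and Serp1 are not on the list of 28 genes and were chosen by their values. Ero1l and Tmed2 were among the smallest p-values of the whole comparison. Genes chosen in this way add no separate support for the group. Ero1l, the oxidase that renews disulphide isomerases, had 15.9 and 16.8 FPKM at 24 weeks, against 25.4 and 26.8 FPKM at 16 weeks (log2 fold change -0.64, SE 0.07; limma adjusted p = 0.164). Tmed2, a cargo receptor of early secretory vesicles, had 99.8 and 109 FPKM at 24 weeks, against 142 and 142 FPKM at 16 weeks (log2 fold change -0.44). Serp1, an ER membrane protein linked to the translocon, had 245 and 285 FPKM at 24 weeks, against 370 and 399 FPKM at 16 weeks (log2 fold change -0.54). Canx, calnexin, had 145 and 162 FPKM at 24 weeks, against 189 and 192 FPKM at 16 weeks (log2 fold change -0.32). The 6 members of the list that overlapped were Ddit3, Atf6, Creb3l1, Creb3l4, Creld2 and Sdf2l1, the first 4 of them transcription factors. Xbp1, another such factor, had 189 and 191 FPKM at 24 weeks, against 205 and 193 FPKM at 16 weeks, and Ddit3 (CHOP), the death-linked factor of ER stress, had 16.5 and 17.1 FPKM at 24 weeks, against 16.0 and 18.2 FPKM at 16 weeks. On PEITC diet the median of the list was -0.10, with 18 of 28 genes lower. In wild type mice the median was 0.09, with 1 library at 16 weeks. The age change of Hspa5 differed between control and PEITC diet by -0.42 (95% interval -0.79 to -0.05; limma unadjusted p = 0.0297, adjusted p = 0.343).

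Promoters of these chaperones are shown because the group was lower together and several carry the ER stress response element, the sequence through which the unfolded protein response acts on them. The element was searched on both strands as CCAAT and CCACG with 9 bases of any kind between them, in windows of 250 bases before to 50 after the gene start. It was present in 7 of the 23 genes of the list with a promoter in RefSeq (Hspa5, Hsp90b1, Canx, Calr, Pdia6, Creld2 and Dnajc3) and in 39 of 32851 promoters in all (0.119%). Of these 7 genes, Creld2 overlapped between the ages and the others did not. The sequences are from RefSeq, build GRCm38.p6, 5′ to 3′ on the strand of the gene, with the element in capitals: Hspa5 at chr2:34771840-34772139 (plus strand), Hsp90b1 at chr10:86705395-86705694 (minus strand), Canx at chr11:50325624-50325923 (minus strand) and Pdia6 at chr12:17266339-17266638 (plus strand). Hsp90b1 holds 2 elements, one on each strand.
Hspa5: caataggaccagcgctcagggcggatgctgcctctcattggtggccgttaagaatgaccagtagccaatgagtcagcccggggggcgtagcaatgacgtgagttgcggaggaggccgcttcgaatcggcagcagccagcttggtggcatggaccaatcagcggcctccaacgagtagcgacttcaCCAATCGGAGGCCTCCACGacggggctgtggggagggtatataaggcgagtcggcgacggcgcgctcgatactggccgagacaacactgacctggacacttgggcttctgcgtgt
Hsp90b1: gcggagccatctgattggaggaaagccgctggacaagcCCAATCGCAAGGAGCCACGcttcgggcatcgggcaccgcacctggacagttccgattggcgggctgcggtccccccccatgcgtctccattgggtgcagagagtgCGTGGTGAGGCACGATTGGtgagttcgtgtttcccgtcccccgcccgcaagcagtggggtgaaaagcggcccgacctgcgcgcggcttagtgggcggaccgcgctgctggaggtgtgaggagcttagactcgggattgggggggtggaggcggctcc
Canx: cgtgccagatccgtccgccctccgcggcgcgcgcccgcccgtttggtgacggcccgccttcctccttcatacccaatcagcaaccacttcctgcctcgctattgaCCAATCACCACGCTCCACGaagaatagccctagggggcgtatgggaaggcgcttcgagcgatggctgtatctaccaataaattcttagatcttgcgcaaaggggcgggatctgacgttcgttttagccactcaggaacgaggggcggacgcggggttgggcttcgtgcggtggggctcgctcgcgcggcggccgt
Pdia6: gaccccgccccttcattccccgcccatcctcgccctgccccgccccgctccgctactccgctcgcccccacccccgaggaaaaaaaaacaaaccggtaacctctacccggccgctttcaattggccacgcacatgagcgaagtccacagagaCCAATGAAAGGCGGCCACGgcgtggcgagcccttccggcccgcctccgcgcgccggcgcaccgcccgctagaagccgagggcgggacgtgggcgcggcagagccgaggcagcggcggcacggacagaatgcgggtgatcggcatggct
The 4 genes with these promoters had lower values at 24 weeks. Hsp90b1 had 363 and 418 FPKM at 24 weeks, against 469 and 489 FPKM at 16 weeks (log2 fold change -0.30), and Pdia6 had 340 and 415 FPKM at 24 weeks, against 429 and 477 FPKM at 16 weeks (log2 fold change -0.27). Dnajb9, Herpud1, Manf and Pdia4 had larger differences than these 2 genes. A match is a description of the letters in a window and does not show that a factor binds there.

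Cytosolic and mitochondrial heat shock genes were lower as well. These chaperones refold damaged proteins and are induced by Hsf1. Of 13 listed genes, all tested, 12 were lower and 1 higher without overlap, 7 were lower and none higher at an unadjusted p under 0.05, and none was called. The median was -0.29, -0.32 after the GC correction, and between -0.42 and -0.18 when any 1 library was left out. Hspa1b and Hspa1a, near-identical genes of the inducible Hsp70 that can share reads, had 17.9 and 35.5 FPKM and 4.36 and 7.13 FPKM at 24 weeks, against 39.8 and 54.3 FPKM and 8.29 and 10.4 FPKM at 16 weeks. Hsph1, an Hsp70 exchange factor, had 19.6 and 30.8 FPKM at 24 weeks, against 36.3 and 41.1 FPKM at 16 weeks (log2 fold change -0.63). Hspa8, the constitutive Hsp70, had 364 and 487 FPKM at 24 weeks, against 562 and 544 FPKM at 16 weeks (log2 fold change -0.39). The one gene that was higher was Hsf1 itself, with 20.6 and 20.3 FPKM at 24 weeks, against 19.2 and 17.6 FPKM at 16 weeks. On PEITC diet 6 of the 13 were lower and 7 higher at 24 weeks, with a median of 0.02.

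Hspd1 and Hspe1, the mitochondrial chaperonin pair, are transcribed in opposite directions from a shared promoter, which is shown because it holds the heat shock element. Hspd1 had 77.9 and 82.6 FPKM at 24 weeks, against 88.5 and 100 FPKM at 16 weeks. Hspe1 had 87.4 and 107 FPKM at 24 weeks, against 117 and 108 FPKM at 16 weeks. The element was searched on both strands as GAA, TTC and GAA with 2 bases of any kind between neighbours, and was found in 3 of the 9 heat shock genes with a promoter (Hspd1, Hspe1 and Hsph1) and in 198 of 32851 promoters (0.603%). The promoter of Hspd1, at chr1:55087883-55088182 (minus strand) of GRCm38.p6 in RefSeq, carries 2 overlapping matches, on opposite strands, in capitals.
Hspd1: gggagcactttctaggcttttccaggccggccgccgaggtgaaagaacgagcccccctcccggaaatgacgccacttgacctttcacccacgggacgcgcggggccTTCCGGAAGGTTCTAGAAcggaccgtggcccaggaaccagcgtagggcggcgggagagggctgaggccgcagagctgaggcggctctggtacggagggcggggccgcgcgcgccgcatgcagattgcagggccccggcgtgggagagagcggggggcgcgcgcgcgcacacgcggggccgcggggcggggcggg
Both genes of the pair were lower at 24 weeks in every library, by less than the Hsp70 genes.

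**Figure D3:**
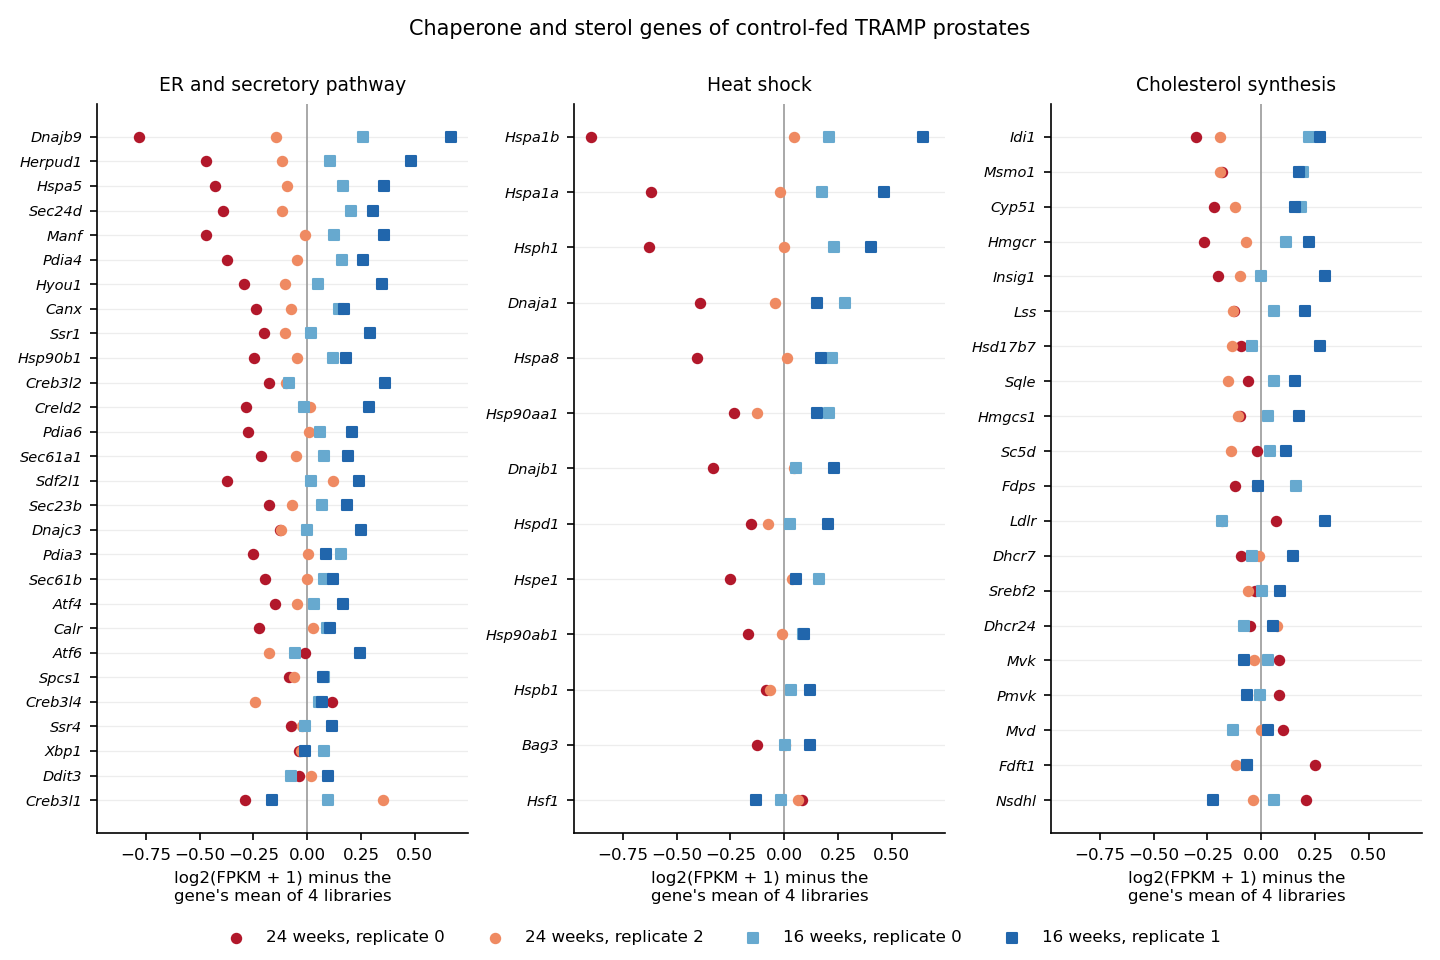
Each gene's log2(FPKM + 1) in the 4 libraries of control-fed TRAMP mice, minus the gene's mean over them, for ER and secretory pathway (28 genes), heat shock (13) and cholesterol synthesis (20). In nearly all rows of the first 2 panels the 24-week circles lie left of the 16-week squares, and in most of them replicate 0 of 24 weeks lies farthest left.

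Cholesterol synthesis genes showed smaller differences. Of 20 cholesterol synthesis genes, 12 were lower and none higher without overlap, and 8 were lower at an unadjusted p under 0.05, with a median of -0.15, the same after the GC correction. Msmo1, a sterol demethylation enzyme, had 19.8 and 19.7 FPKM at 24 weeks, against 26.0 and 25.7 FPKM at 16 weeks (log2 fold change -0.37, SE 0.05; limma adjusted p = 0.178). Idi1, which makes isoprenoid precursors, had 6.05 and 6.64 FPKM at 24 weeks, against 9.15 and 9.53 FPKM at 16 weeks (log2 fold change -0.49). Cyp51, lanosterol demethylase, had 13.8 and 14.8 FPKM at 24 weeks, against 18.6 and 18.2 FPKM at 16 weeks (log2 fold change -0.34). The replicates of each age were close in these 3 genes. On PEITC diet all 20 were lower at 24 weeks (median -0.28), and in wild type 18 were (median -0.23). The early mevalonate enzymes Mvk, Pmvk and Mvd overlapped between the ages. Of 17 fatty acid and lipid synthesis genes, 5 were lower and 2 higher without overlap, with a median of -0.17, and -0.20 after the GC correction.

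Acute-phase genes were among the largest differences, and those were higher at 24 weeks. Acute-phase proteins are made in liver and in epithelia under interleukin-6 type cytokines, which signal through Stat3 and are held in check by Socs3. Of 18 tested genes on a list of complement and acute-phase genes, 8 were higher and none lower without overlap, 5 were higher at an unadjusted p under 0.05, and none was called. Their median log2 fold change was 0.75, and 0.69 after the GC correction. Without 16-week replicate 1 the median was 0.23 and without 16-week replicate 0 it was 1.04. The libraries of an age were far apart. The list's median deviation from each gene's mean over the 4 libraries was -0.001 in replicate 0 and 0.72 in replicate 2 at 24 weeks. It was 0.08 in replicate 0 and -0.65 in replicate 1 at 16 weeks. By this measure replicate 0 of 24 weeks was not above replicate 0 of 16 weeks.

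Lrg1 (chr17:56119678-56122001, minus strand), leucine-rich alpha-2-glycoprotein, had the largest log2 fold change of all tested genes on the log2(FPKM + 1) scale. By the ratio of mean FPKM, some genes changed more, Saa1 and Clca3a2 below among them. Lrg1 had 543 and 171 FPKM at 24 weeks, against 44.6 and 22.4 FPKM at 16 weeks, 10.7-fold higher in the means (log2 fold change 3.23, SE 0.75; limma adjusted p = 0.178). On PEITC diet it had 22.9 and 20.1 FPKM at 24 weeks, against 18.6 and 57.0 FPKM at 16 weeks, and in wild type 77.4 and 24.8 FPKM at 24 weeks, against 80.6 FPKM at 16 weeks. Both control-fed 24-week libraries were above every PEITC-fed and wild type library. Lcn2, lipocalin 2, an iron-scavenging epithelial defence protein, had 115 and 61.3 FPKM at 24 weeks, against 21 and 8.89 FPKM at 16 weeks (log2 fold change 2.52). Wild type libraries spanned a similar range in Lcn2, with 135 and 11.4 FPKM at 24 weeks, against 114 FPKM at 16 weeks. Hp, haptoglobin, had 31.4 and 66.7 FPKM at 24 weeks, against 12.4 and 2.03 FPKM at 16 weeks (log2 fold change 2.88). Saa1, serum amyloid A1, which has a near-identical copy in Saa2, had 99.5 and 7.06 FPKM at 24 weeks, against 3.67 and 2.36 FPKM at 16 weeks, so its mean rested on 1 library.

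Several genes of cytokine signalling, chosen after their values were seen, were also higher. Socs3 had 11.2 and 4.96 FPKM at 24 weeks, against 1.81 and 1.05 FPKM at 16 weeks (log2 fold change 1.83, SE 0.36; limma adjusted p = 0.178). Cebpb, a transcription factor of the acute-phase response, had 18.6 and 13.4 FPKM at 24 weeks, against 6.45 and 5.57 FPKM at 16 weeks (log2 fold change 1.26), and its relative Cebpd had 16.0 and 8.52 FPKM at 24 weeks, against 5.60 and 4.05 FPKM at 16 weeks. Osmr, the oncostatin M receptor, had 4.07 and 2.84 FPKM at 24 weeks, against 1.24 and 0.658 FPKM at 16 weeks (log2 fold change 1.2). In all 4 genes the lower 24-week library exceeded the higher 16-week library by a clear margin. Bcl3, an NF-kB cofactor, had 29.9 and 14.8 FPKM at 24 weeks, against 8.83 and 4.84 FPKM at 16 weeks (log2 fold change 1.54). Stat3 had 82.9 and 49.1 FPKM at 24 weeks, against 41.5 and 37.5 FPKM at 16 weeks (log2 fold change 0.68). Steap4, a metalloreductase induced by inflammatory cytokines, had 32.6 and 10.5 FPKM at 24 weeks, against 3.97 and 3.86 FPKM at 16 weeks (log2 fold change 2.0).

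The promoter of Socs3 is printed because Stat3 acts on that gene through sites of the form TTCNNNGAA, which read the same on both strands. Such a site was found in Socs3 and Steap4 among 10 of the genes with large differences that had a promoter, and in 2726 of 32851 promoters (8.30%). Among 11 acute-phase genes of the list with a promoter, only C1ra held one. The window lies at chr11:117969317-117969616 (minus strand) of GRCm38.p6 in RefSeq, with the site in capitals.
Socs3: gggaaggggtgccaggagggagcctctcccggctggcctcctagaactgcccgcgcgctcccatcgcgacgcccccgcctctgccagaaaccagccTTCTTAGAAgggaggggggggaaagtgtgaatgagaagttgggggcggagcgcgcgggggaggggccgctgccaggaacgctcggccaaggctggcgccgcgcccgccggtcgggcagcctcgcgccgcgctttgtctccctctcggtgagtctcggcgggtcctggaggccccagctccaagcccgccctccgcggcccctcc
No match in the other windows says only that these letters are absent there.

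**Figure D4:**
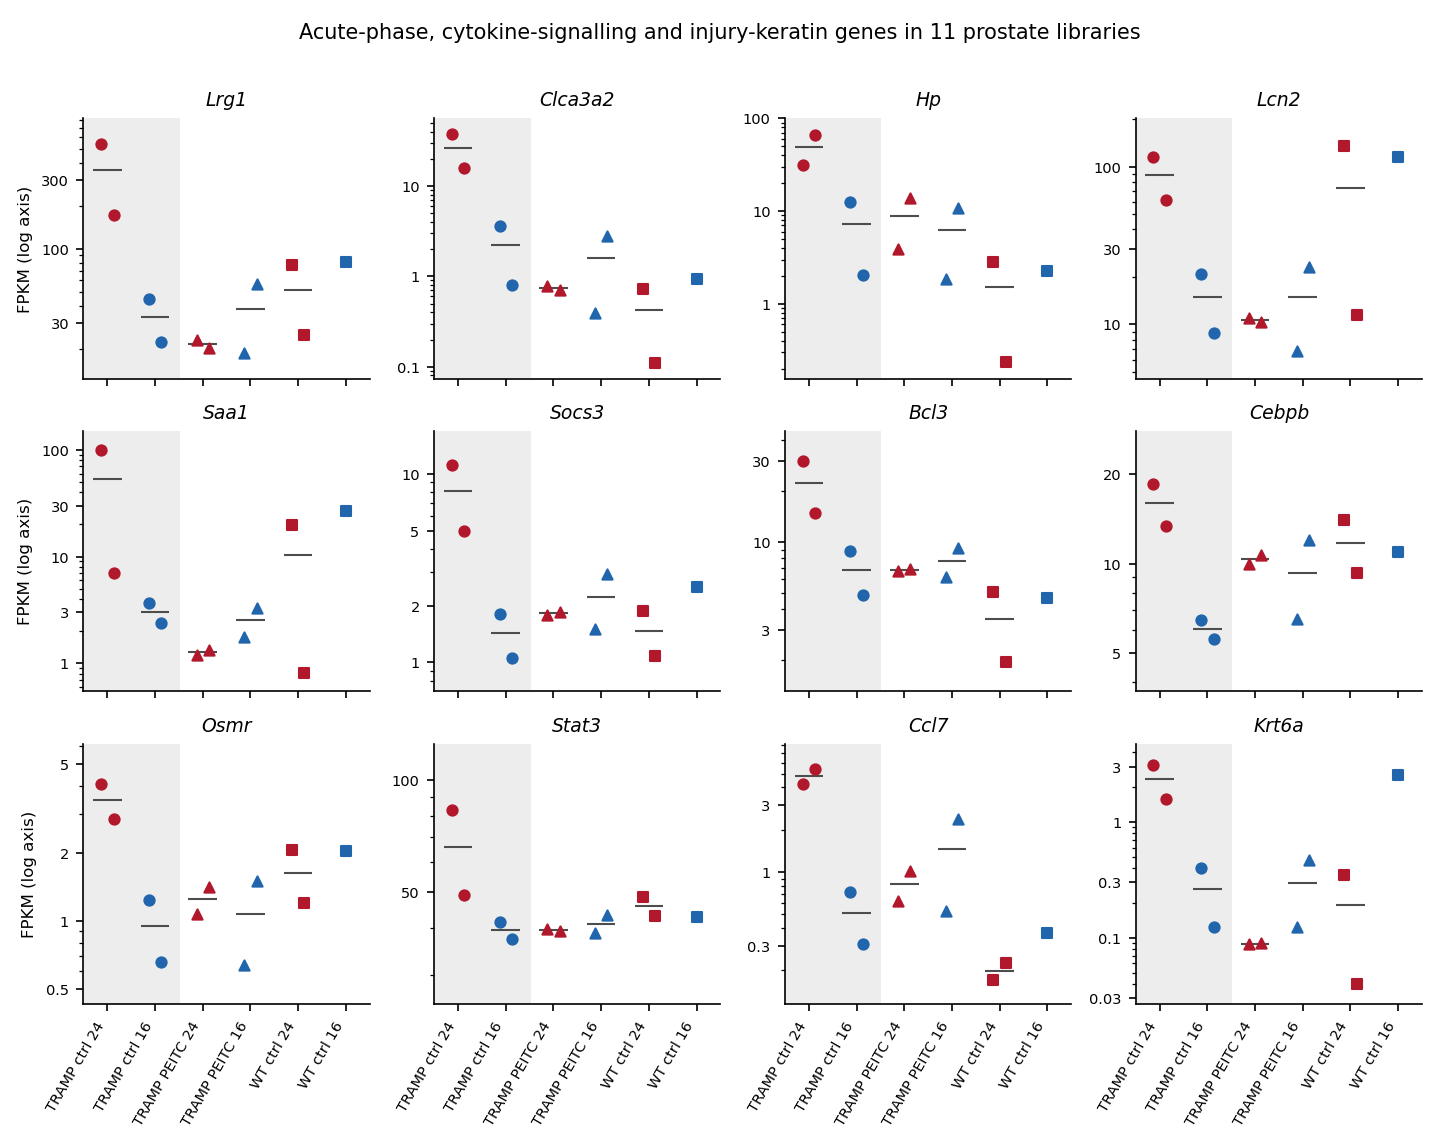
FPKM (log axis) of 12 acute-phase, cytokine-signalling and injury-keratin genes in each of the 11 prostate libraries; circles are TRAMP control diet (shaded), triangles TRAMP PEITC diet, squares wild type, red 24 weeks, blue 16 weeks, and lines the means of 2 libraries. The 2 red circles are above the 2 blue circles in every panel, and in panels including Lrg1, Lcn2, Saa1 and Krt6a the 16-week wild type library lies within the range of the 4 circles.

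Other large differences were of a few epithelial, keratin, protease and chemokine genes, most of them chosen after their values were seen. Clca3a2, of a family of secreted chloride channel regulators, had 37.3 and 15.9 FPKM at 24 weeks, against 3.62 and 0.803 FPKM at 16 weeks (log2 fold change 3.14, SE 0.61). Krt6a, a keratin of regenerating epithelium, had 3.13 and 1.59 FPKM at 24 weeks, against 0.404 and 0.124 FPKM at 16 weeks, and Krt17 had 6.48 and 5.35 FPKM at 24 weeks, against 3.02 and 1.46 FPKM at 16 weeks. Mmp3, stromelysin, had 2.74 and 2.66 FPKM at 24 weeks, against 0.994 and 0.0583 FPKM at 16 weeks. Krt6a and Mmp3 were at a few FPKM or below, where the log2(FPKM + 1) scale understates changes. Of 26 cytokine, chemokine and NF-kB target genes, 9 were higher and 1 lower without overlap, with a median of 0.18, and 0.23 after the GC correction. Ccl7, a monocyte chemokine, had 4.23 and 5.41 FPKM at 24 weeks, against 0.718 and 0.306 FPKM at 16 weeks (log2 fold change 1.95, SE 0.34; limma adjusted p = 0.178), and 0.624 and 1.01 FPKM at 24 weeks on PEITC diet, against 0.528 and 2.38 FPKM at 16 weeks. Ccl12 had 5.89 and 5.11 FPKM at 24 weeks, against 2.08 and 1.30 FPKM at 16 weeks. Tnf and Il1b stayed near 1 FPKM or below, with 0.889 and 1.08 FPKM of Tnf at 24 weeks, against 0.613 and 0.275 FPKM at 16 weeks. Cxcl17, an epithelial chemokine, had 82.5 and 23.9 FPKM at 24 weeks, against 15.9 and 17.1 FPKM at 16 weeks.

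Markers of leukocytes did not move as 1 block. Of 13 tested T and NK cell genes, 10 were higher and none lower without overlap, with a median of 0.37 that stayed between 0.26 and 0.46 when any 1 library was left out and was 0.36 after the GC correction. The rise was not particular to control-fed TRAMP mice. On PEITC diet 12 of the 13 were higher at 24 weeks (median 0.21), and in wild type all 13 were (median 0.22), with 1 library at 16 weeks. Cd3g, a chain of the T cell receptor complex, had 4.40 and 5.74 FPKM at 24 weeks, against 2.87 and 2.63 FPKM at 16 weeks (log2 fold change 0.69, SE 0.14). Gzmb, the cytotoxic protease granzyme B, had 13.8 and 11.7 FPKM at 24 weeks, against 8.80 and 8.12 FPKM at 16 weeks. Cd8a had 1.17 and 1.89 FPKM at 24 weeks, against 0.658 and 0.983 FPKM at 16 weeks. The T cell values were low but ordered by age in these 3 genes. Macrophage genes were not: of 18, 17 overlapped between the ages and Mertk, an engulfment receptor, was lower. Csf1r, the macrophage growth factor receptor, had 5.25 and 11.8 FPKM at 24 weeks, against 10.1 and 4.83 FPKM at 16 weeks. The summed level of the list was 244 and 516 FPKM at 24 weeks, against 399 and 181 FPKM at 16 weeks, and its median was 0.33, 0.36 after the GC correction, 0.95 without replicate 0 of 24 weeks and -0.10 without replicate 2.

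Antigen processing genes differed by little. Of 15 class I and processing genes, 8 were higher and 1 lower without overlap, with a median of 0.16, and 0.09 after the GC correction. Tap2, a peptide transporter subunit, had 81.7 and 77.4 FPKM at 24 weeks, against 65.2 and 59.0 FPKM at 16 weeks (log2 fold change 0.35, SE 0.08). Psmb10, an immunoproteasome subunit, had 77.2 and 75.4 FPKM at 24 weeks, against 64.6 and 53.1 FPKM at 16 weeks. Of the presenting molecules on the list, H2-Q4 was higher, with 129 and 148 FPKM at 24 weeks, against 119 and 108 FPKM at 16 weeks, while H2-D1, H2-T23, B2m and H2-K1 overlapped, H2-K1 being at 1221 and 1623 FPKM at 24 weeks, against 1438 and 1367 FPKM at 16 weeks. Of 26 interferon-stimulated genes, 6 were higher and 5 lower without overlap, with a median of 0.02, and 0.04 after the GC correction.

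Stromal and fat genes varied within an age as much as between ages. Fibroblast genes overlapped in all 17 cases: Col1a1 had 7.45 and 28.7 FPKM at 24 weeks, against 36.4 and 8.50 FPKM at 16 weeks. The summed fibroblast level was 124 and 351 FPKM at 24 weeks, against 316 and 123 FPKM at 16 weeks, so replicate 2 of 24 weeks and replicate 0 of 16 weeks were high and the other library of each age was low. The fibroblast median was 0.12, and 0.03 after the GC correction. Smooth muscle genes were closer, with Acta2 at 60.6 and 74.2 FPKM at 24 weeks, against 65.6 and 82.1 FPKM at 16 weeks. Adipocyte genes had the highest median of any list, 1.33, and 1.25 after the GC correction, with 7 of 12 higher without overlap. Adipoq, adiponectin, a defining fat gene, overlapped with 3.35 and 14.1 FPKM at 24 weeks, against 3.7 and 0.255 FPKM at 16 weeks. Cfd, adipsin, had 23.2 and 97.2 FPKM at 24 weeks, against 13.3 and 1.32 FPKM at 16 weeks. Summed, the list was at 160 and 368 FPKM at 24 weeks, against 134 and 69.4 FPKM at 16 weeks. On PEITC diet the mean of all 12 was higher at 24 weeks as well, with a median of 1.09. In most of them this rested on 1 library, replicate 1 of 24 weeks. Adipoq had 0.863 and 18.9 FPKM at 24 weeks on that diet, against 0.762 and 1.25 FPKM at 16 weeks. Lipe and Pnpla2 differed less between those replicates. The summed complement and acute-phase list was at 366 and 360 FPKM at 24 weeks, against 185 and 87.0 FPKM at 16 weeks, so both sums were lowest in replicate 1 of 16 weeks, and the part of fat tissue in the acute-phase differences was not tested.

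Lipe, hormone-sensitive lipase, departed from the other fat genes in that replicate 0 was its higher 24-week library. It had 16.9 and 11 FPKM at 24 weeks, against 6.24 and 4.75 FPKM at 16 weeks (log2 fold change 1.18, SE 0.26; limma adjusted p = 0.178). Of 13 endothelial genes, 5 were higher and none lower without overlap, with a median of 0.30, and 0.19 after the GC correction. That median was 0.10 without replicate 2 of 24 weeks and 0.07 without replicate 1 of 16 weeks. Lyve1, a lymphatic and macrophage hyaluronan receptor, had 4.63 and 7.37 FPKM at 24 weeks, against 1.32 and 0.711 FPKM at 16 weeks (log2 fold change 1.78, SE 0.45). Cldn5, a tight-junction gene of vessels, had 2.54 and 3.0 FPKM at 24 weeks, against 1.74 and 1.48 FPKM at 16 weeks. Pecam1 overlapped at 3.09 and 3.98 FPKM at 24 weeks, against 3.10 and 1.85 FPKM at 16 weeks.

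Cell cycle genes, which T antigen drives through release of E2F, held no member that was higher without overlap in the replication and mitosis lists. Of 30 DNA replication genes, 12 were lower and none higher without overlap, with a median of -0.15, and of 30 mitosis genes 9 were lower and none higher, with a median of -0.10. Mki67, the proliferation marker, overlapped at 15.7 and 12.8 FPKM at 24 weeks, against 14.3 and 20.7 FPKM at 16 weeks (log2 fold change -0.26; limma adjusted p = 0.482). Cdk1 had 18.8 and 19.0 FPKM at 24 weeks, against 22.1 and 24.6 FPKM at 16 weeks (log2 fold change -0.29), and Cdc6, which loads the replicative helicase, had 5.16 and 7.02 FPKM at 24 weeks, against 7.49 and 11 FPKM at 16 weeks. Mcm3, a helicase subunit, had 46.2 and 49.9 FPKM at 24 weeks, against 48.4 and 58.6 FPKM at 16 weeks. Differences in these lists were small in control-fed TRAMP mice, and after the GC correction the medians were -0.12 and -0.05. The other groups were lower at 24 weeks too. On PEITC diet the medians were -0.15 for replication and -0.09 for mitosis, with 26 of 30 genes lower in each. In wild type they were -0.34 (29 lower) and -0.86 (30 lower), resting on 1 library at 16 weeks.

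The gene of the cell cycle lists with the largest fold change was an inhibitor. Cdkn2a (chr4:89274471-89294653, minus strand), which encodes p16 and p19ARF and is released when the retinoblastoma pathway is lost, had 136 and 120 FPKM at 24 weeks, against 82.2 and 44.4 FPKM at 16 weeks. The means were 128 ± 11.5 FPKM at 24 weeks and 63.3 ± 26.8 FPKM at 16 weeks (SD, n = 2 each), 2.02-fold higher at 24 weeks (log2 fold change 1.06, SE 0.28; limma adjusted p = 0.182). On PEITC diet it had 99.0 and 104 FPKM at 24 weeks, against 109 and 71.3 FPKM at 16 weeks, and in wild type prostates 0.404 and 0.555 FPKM at 24 weeks, against 0.434 FPKM at 16 weeks. Cdkn1a (p21) had 8.52 and 7.66 FPKM at 24 weeks, against 6.75 and 2.97 FPKM at 16 weeks, and Cdkn2c (p18) had 47.1 and 43.9 FPKM at 24 weeks, against 39.4 and 31.5 FPKM at 16 weeks. Of 14 CDK inhibitor and cyclin D genes, 4 were higher and 1 lower without overlap, with a median of 0.10, and 0.07 after the GC correction. p53 targets were split, with 6 of 18 higher and 6 lower and a median of -0.03, and -0.01 after the GC correction. Sesn1, a stress-induced metabolic regulator, had 12.4 and 15.6 FPKM at 24 weeks, against 24.5 and 20.1 FPKM at 16 weeks (log2 fold change -0.63), while the death receptor Fas had 22 and 16.3 FPKM at 24 weeks, against 14.0 and 11.2 FPKM at 16 weeks.

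Neuroendocrine markers were near 0, and 2 of 8 tested genes were higher and 1 lower without overlap. Chga, chromogranin A, a defining neuroendocrine gene, was at 0.133 and 0.140 FPKM at 24 weeks, against 0.0897 and 0.260 FPKM at 16 weeks, and Syp, synaptophysin, at 0.617 and 0.611 FPKM at 24 weeks, against 0.490 and 0.268 FPKM at 16 weeks. Stmn2, a neuronal tubulin regulator, had 1.28 and 2.08 FPKM at 24 weeks, against 0.834 and 0.257 FPKM at 16 weeks. Of 12 tested basal cell genes, 4 (Krt15, Krt17, Itga6 and Lamb3) were higher and none lower without overlap, with a median of 0.14, and 0.00 after the GC correction. The defining basal genes overlapped, with Krt5 at 4.67 and 7.71 FPKM at 24 weeks, against 5.15 and 6.97 FPKM at 16 weeks, and Trp63 at 0.408 and 0.762 FPKM at 24 weeks, against 0.731 and 0.883 FPKM at 16 weeks. Lamb3, a basal laminin chain, was higher, with 3.12 and 2.79 FPKM at 24 weeks, against 1.95 and 1.44 FPKM at 16 weeks (log2 fold change 0.56). Of 10 luminal progenitor and proximal duct genes, 4 were higher and 1 lower without overlap, with a median of 0.10, and 0.09 after the GC correction. Ly6a (Sca-1), a progenitor surface marker that other cell types also carry, had 211 and 212 FPKM at 24 weeks, against 143 and 69.5 FPKM at 16 weeks. Ly6d, a marker of castration-tolerant luminal progenitors, had 2.72 and 4.34 FPKM at 24 weeks, against 1.81 and 1.32 FPKM at 16 weeks (log2 fold change 0.81).

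Among transcription and signalling genes, several of the smallest p-values were of higher expression. Ssbp4, a single-stranded DNA binding cofactor, had 36.1 and 31.3 FPKM at 24 weeks, against 20.6 and 19.7 FPKM at 16 weeks (log2 fold change 0.71, SE 0.09; limma adjusted p = 0.164). Sox9, a progenitor factor of prostate development, had 100 and 87.4 FPKM at 24 weeks, against 64.1 and 60.3 FPKM at 16 weeks (log2 fold change 0.58, SE 0.08). Rara, a retinoic acid receptor, had 7.29 and 6.49 FPKM at 24 weeks, against 4.15 and 4.18 FPKM at 16 weeks (log2 fold change 0.61). The 24-week libraries were apart from the 16-week libraries in all 3. Hes1, a Notch target, had 52.4 and 55.4 FPKM at 24 weeks, against 39.3 and 34.4 FPKM at 16 weeks (log2 fold change 0.54), and Elf3, an epithelial ETS factor, had 134 and 103 FPKM at 24 weeks, against 88.9 and 68.6 FPKM at 16 weeks. Growth factor ligands on the lower side included Kitl, stem cell factor, with 6.72 and 10.04 FPKM at 24 weeks, against 13.3 and 15.3 FPKM at 16 weeks (log2 fold change -0.72). Ctgf, a matricellular YAP target, had 5.88 and 8.50 FPKM at 24 weeks, against 22 and 13.2 FPKM at 16 weeks (log2 fold change -1.16, SE 0.23). It came from a list of 12 YAP target and matricellular genes, which also holds the pathway's own factors Yap1, Wwtr1, Tead1 and Tead4. Only 1 of the 12 was higher and 1, Ctgf itself, lower without overlap.

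**Figure D5:**
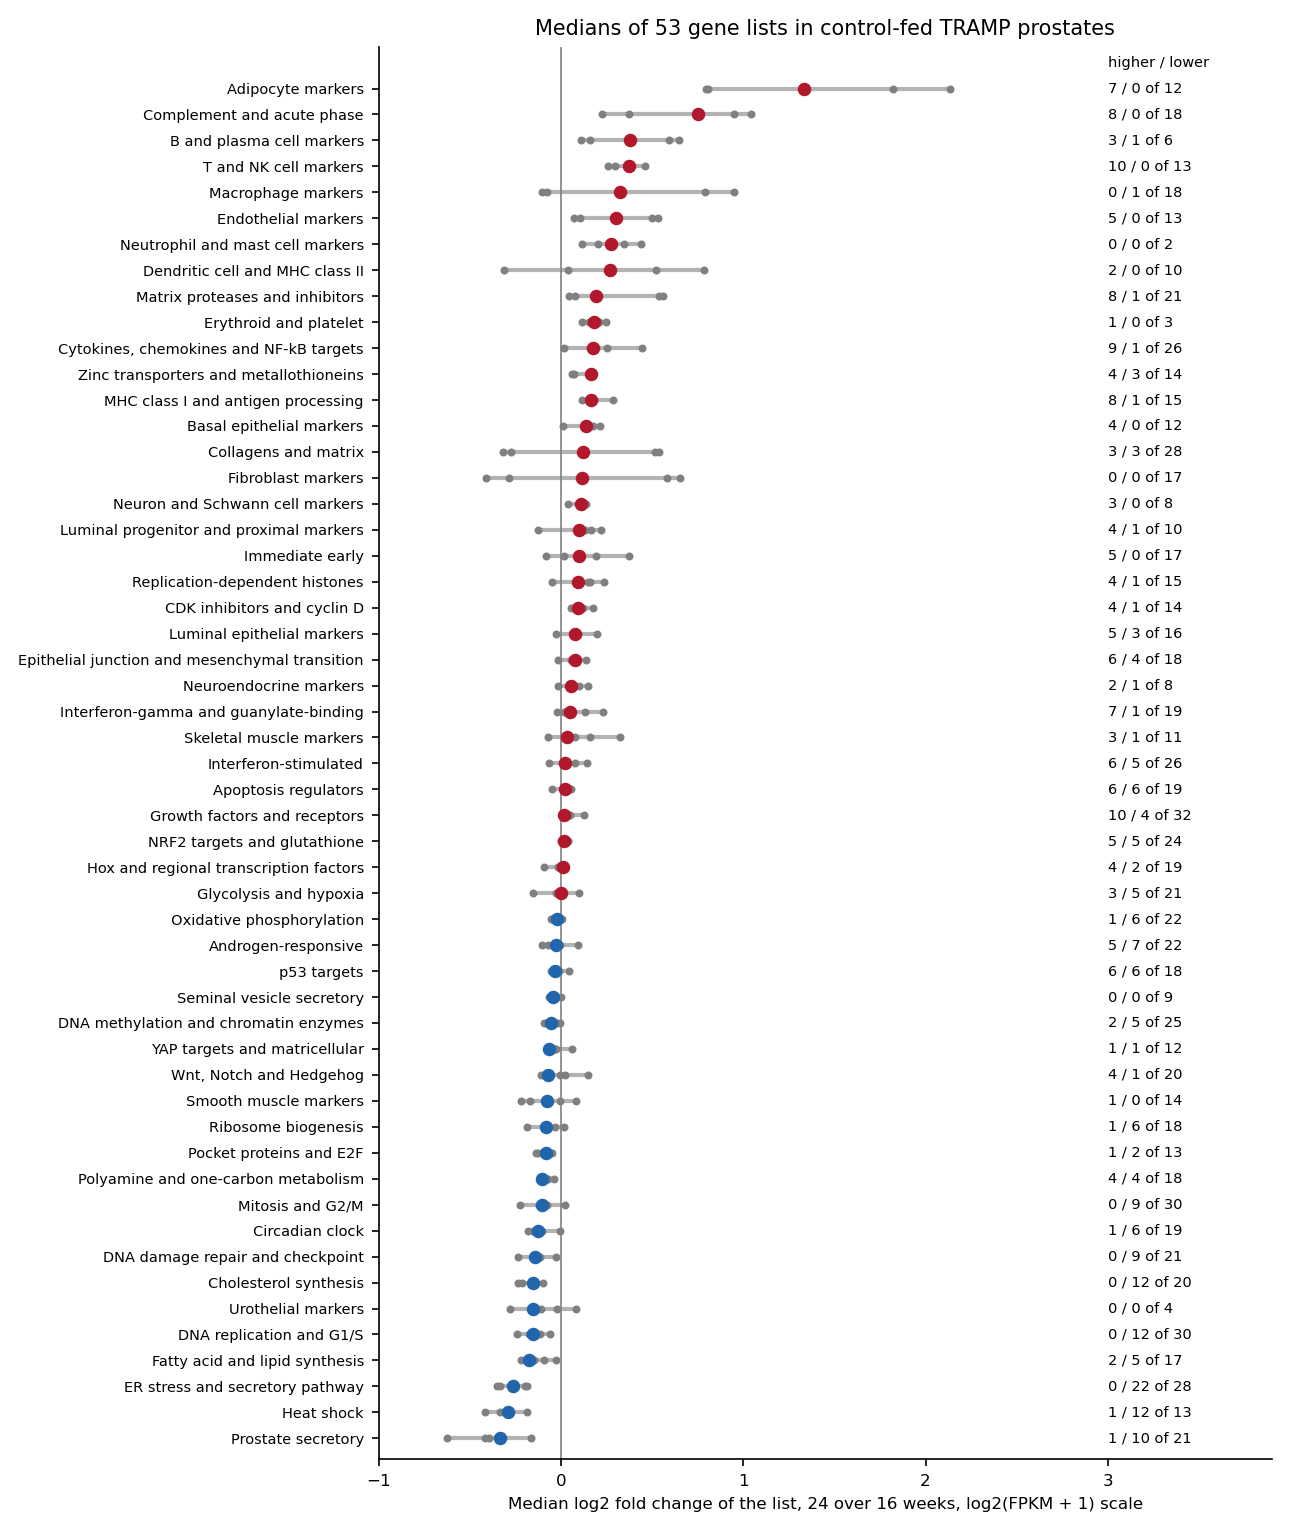
Median log2 fold change of 24 over 16 weeks (log2(FPKM + 1) scale) for 53 gene lists (large points, red above 0, blue below), with the medians found when 1 of the 4 libraries is left out (small grey points and line). Numbers at the right give genes higher / lower without overlap of the tested genes; ER and heat shock lists stay below 0 in every case, while macrophage, fibroblast and collagen lists cross 0.

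Set beside the other diet and genotype, which share no library with these 4, only the age change of Cyp2b10 passed the test of the difference by diet: 1 of 13324 genes (0.00751%) was called there by limma, and 1713 (12.9%) were under an unadjusted p of 0.05. For PEITC-fed TRAMP mice 0 genes were called between the ages by limma, with 1077 (8.08%) at an unadjusted p under 0.05. Lrg1 differed between control and PEITC diet by 3.81 (95% interval 1.38 to 6.25; limma unadjusted p = 0.00696, adjusted p = 0.305) and Socs3 by 1.98 (95% interval 0.80 to 3.15; adjusted p = 0.305). Ero1l differed by -0.57 (95% interval -0.81 to -0.33; limma unadjusted p = 6.33e-04, adjusted p = 0.303) and Tmed2 by -0.50. Cdkn2a differed by 0.86, with an interval of -0.04 to 1.77 that includes 0. Between genotypes 49 genes (0.368%) were called by limma, among them Svs2, a seminal vesicle protein that had 3095 FPKM in the single 16-week wild type library.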

How the data were processed

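The authors deposited 1 table of FPKM per library, and HISAT2, Picard, featureCounts and DESeq2 with build mm10 are named per the submitters' processing notes. No version, setting or annotation of these tools is given in the sources used here. No read counts were used, so depth is unknown apart from relative steps of low values, and no counting interval is given. GENCODE M21 gave coordinates, exon GC content and small RNA classes. FPKM were tested as log2(FPKM + 1) in limma 3.58.1 (R 4.3.3) with an intensity trend, on the 11 prostate libraries in 6 groups (5 residual degrees of freedom), over the 13324 of 24421 genes that averaged 0.5 FPKM or more, with BH adjustment over all of them. A fold change on this scale understates changes of low genes. Tables and figures used Python 3.11.15. The fit was checked on simulated data. Named genes were the called genes, the 5 smallest p-values in each direction, the member with the smallest p of each list, and a fixed set of markers; genes with large differences or of interest in a list were added after their values were seen. The comparison, its 53 gene lists and the named genes were chosen with earlier results of these data known. Replicate numbers are 0 and 2 at 24 weeks and 0 and 1 at 16 weeks, so the main fit has no pairing. Alternatives were other pseudocounts, filters, scalings, a GC correction, other sets of libraries, a replicate block and each library left out. The count of table columns from another series was 0. The SV40 transgene was not analysed here.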

Additional observations from a re-analysis of the deposited data

Results flagged for a closer look

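The age change of Cyp2b10 differed between control and PEITC diet by -1.30 on the log2 scale in limma, with 14.6 and 14.1 FPKM at 24 weeks on control diet, against 46.5 and 48.6 FPKM at 16 weeks. It differed between TRAMP and wild type by -1.61.

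The largest differences in age change between TRAMP and wild type were of seminal vesicle genes, with 9.76 for Svs2, 9.65 for Pate4, 9.05 for Svs5, 8.29 for Svs4 and 5.76 for Svs6. These genes were high in the single 16-week wild type library. Svs2 had 1.96 and 3.04 FPKM in wild type at 24 weeks, against 3095 FPKM at 16 weeks, and at most 0.111 FPKM in the 4 control-fed TRAMP libraries. In TRAMP mice these genes were near 0 at both ages.

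Secretoglobins differed the other way, by -3.07 for Scgb2b12 and -2.25 for Scgb2b27. Scgb2b27 had 307 and 372 FPKM in control-fed TRAMP mice at 24 weeks, against 478 and 638 FPKM at 16 weeks, and 68.8 and 64.3 FPKM in wild type at 24 weeks, against 22.1 FPKM at 16 weeks. Tbccd1 differed by -0.70 and Erlec1, an ER lectin, by -0.62. Erlec1 had 47.1 and 51.1 FPKM in control-fed TRAMP mice at 24 weeks, against 58.6 and 62.8 FPKM at 16 weeks. Each of the differences from wild type rests on the single 16-week wild type library.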

How the results depend on the processing

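Over 97 genes and 19 alternative settings, 1781 fold changes kept their direction and side of the threshold, 48 passed it only in the alternative, and 1 lost it (Cyp2b10, adjusted p = 0.0506 in limma on the 4 libraries alone). List medians moved by less than the replicate spread in 894 cases and by more in 112. Against 1 call between the ages, limma made 4 with no filter, 3 with quantile normalization and 0 in the fit on the 4 libraries, where 666 genes were higher and 710 lower at an unadjusted p under 0.05. Leaving out 1 library gave 1 to 256 calls, 256 without replicate 2 of 24 weeks. Genes higher at an unadjusted p under 0.05 numbered 650 with the GC correction, 511 with the GC correction and without replicate 0 of 24 weeks (chosen after seeing the data), and 676 to 1127 with 1 library left out; genes lower numbered 390 with the GC correction and without replicate 0 of 24 weeks, and 732 to 1319 with 1 library left out. Without 1 library, 4578 to 4758 genes were higher and 4723 to 5577 lower without overlap, since fewer libraries overlap less. By diet, 1 call became 10 with no filter, 0 in the fit on the 8 TRAMP libraries, on the groups compared, with no trend and with the GC correction and without replicate 0 of 24 weeks, and 0 to 121 with 1 library left out. By genotype, 49 calls became 25 with a pseudocount of 0.1, 288 with no filter and 24 with a minimum mean of 2 FPKM. The ages share only replicate number 0, so the numbers do not pair the libraries. With a replicate block, in which number 2 belongs to 1 library alone, limma made 97 calls between the ages and 51 by diet, and the fold change of Top2a, -0.24 without the block, was 0.043. Unknown depth limits what can be said of genes below about 1 FPKM, and 2 libraries an age limit every comparison.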

Other observations

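Near Defb1, other beta-defensin genes also had lower values at 24 weeks. Defb2 had 2.67 and 3.36 FPKM at 24 weeks, against 5.0 and 6.55 FPKM at 16 weeks. Others of the cluster, such as Defb13 and Defb15, were near 0 FPKM. Beta-defensins are similar to one another, and how reads shared among them were counted is not given in the sources used here. Setdb2, which encodes a histone methyltransferase-like protein, had 6.44 and 8.35 FPKM at 24 weeks, against 17.1 and 19.7 FPKM at 16 weeks. Setdb2 was also lower at 24 weeks in wild type (log2 fold change -0.94, with 1 library at 16 weeks) and on PEITC diet (-0.27). Its neighbour Phf11c had 2.44 and 4.81 FPKM at 24 weeks, against 7.60 and 8.84 FPKM at 16 weeks, and Cab39l had 75.8 and 80.3 FPKM at 24 weeks, against 118 and 126 FPKM at 16 weeks. Of the 10 tested genes within 300 kb of Setdb2, itself included, 3 were lower without overlap, near the 24.9% over all tested genes. These loci were chosen after their values were seen.

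Small RNA genes made up 16 of the 77 genes higher by at least 2-fold without overlap (20.8%) and 3 of the 23 lower (13.0%), against 196 of all 13324 tested genes (1.47%). Their short length makes FPKM values coarse. Of 14 zinc transporter and metallothionein genes, 4 were higher and 3 lower without overlap, against 21.3% and 24.9% of all tested genes. Among them, chosen after their values were seen, Mt1 had 388 and 289 FPKM at 24 weeks, against 255 and 271 FPKM at 16 weeks, and Mt2 had 338 and 204 FPKM at 24 weeks, against 154 and 173 FPKM at 16 weeks.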
